A study of Rattus norvegicus with 6 samples.

Results

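Goblet nuclei of the rat ileum were taken as the nuclei with UMIs (unique molecular identifiers, 1 per captured transcript) of at least 3 of the 8 genes Bcas1, Capn9, Fer1l6, Spdef, Gsdmc, Sytl2, Klhdc8a and St6galnac1. The members were thus chosen by measured expression, and the 8 genes of the rule support no finding. The limits on nuclei were 1200 UMIs and 500 detected genes as minimum and 5% mitochondrial UMIs as maximum. Of the 40970 nuclei within these limits, 5228 (12.8%) met the rule. The mucin gene Muc2 was kept out of the rule, since its UMIs were also found in nuclei with markers of other cell types. Nuclei came from the ileum of 6 wild-type male Sprague-Dawley rats aged 6 weeks, with 1 library per rat. In the control group (CON, 3 rats) the abdomen was opened in a sham operation. In the severe acute pancreatitis group (SAP, 3 rats) the pancreatic duct was filled against its flow with 3% sodium taurocholate, 0.1 mL for each 100 g of rat, and clamped for 5 min. The ileum was taken 24 h later. The comparison asked how the goblet cells of the ileum differed between rats with and without acute pancreatitis.

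Goblet cells are the secretory cells of the intestinal epithelium that make and release mucus. They arise from crypt progenitors under the transcription factors Atoh1 and Spdef, pack the heavily O-glycosylated mucin Muc2 into granules together with Fcgbp, Clca1, Zg16 and Tff3, and release these by regulated exocytosis and by a slow constant secretion. The mucus keeps bacteria away from the epithelium, and its folding and glycosylation load the endoplasmic reticulum and Golgi of these cells.

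The goblet nuclei numbered 1152, 1057 and 1293 in CON replicates 1 to 3 and 206, 610 and 910 in SAP replicates 1 to 3. Their UMIs summed to between 418464 in SAP replicate 1 and 7670123 in CON replicate 1, so that values of SAP replicate 1 rested on the fewest counts. The median goblet nucleus held 2963, 1758 and 2171 UMIs in CON and 1631, 2909 and 2356 UMIs in SAP, and the median of the other nuclei of the same libraries lay between 1511 and 1843. A deeper nucleus reaches 3 genes more easily. When each nucleus was thinned to 1200 UMIs and the rule was applied again, 2963 of the 5228 goblet nuclei (56.7%) still met it, from 41.6% in SAP replicate 2 to 77.2% in SAP replicate 1. Unlike the other 4 libraries, CON replicate 2 and SAP replicate 1 came with barcodes under 1000 UMIs in their tables, and 26.2% and 12.2% of their barcodes passed the limits, against 76.4% to 79.9% in the others. The median goblet nucleus had 0.510%, 0.120% and 0.191% mitochondrial UMIs in the CON rats and 1.53%, 1.06% and 0.345% in the SAP rats. Any pair of libraries shared 701 to 7479 barcode names, but these names are running numbers in the tables and not sequences.

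The members of the rule were unequal in what they contributed. Bcas1 was detected in 82.8% to 91.0% of the goblet nuclei of a library, Spdef, a transcription factor of secretory differentiation, in 76.7% to 86.6%, and Fer1l6 in 62.7% to 74.3%. Capn9, a calpain protease of the gut, was found in 29.0% to 36.7%. St6galnac1, the sialyltransferase that caps mucin O-glycans, was detected in 0.971% to 1.82% and so hardly served the rule. Levels of the rule genes are given as a description only, in CPM, the UMIs of a gene scaled to a common total of UMIs per library. Bcas1 stood at 635, 1540 and 1149 CPM in CON and at 2005, 764 and 907 CPM in SAP, so that the groups overlapped. The highest value came from SAP replicate 1 and the lowest from CON replicate 1, and the groups overlapped for the other 7 genes as well.

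The label was checked on 12 goblet genes that the rule did not use. Each stood higher in the goblet nuclei than in the 21064 nuclei with no UMI of any rule gene, in every library. Muc2, the gel-forming mucin of the intestine, stood at 2954 ± 1578 CPM (SD, n = 6) in goblet nuclei and at 412 ± 103 CPM in nuclei with no rule gene. Its values were 2394, 4637 and 2465 CPM in CON and 5030, 863 and 2335 CPM in SAP. The goblet nuclei of SAP replicate 1 thus held the most Muc2 and those of SAP replicate 2 the least. Fcgbp, the IgG Fc binding protein of mucus, stood at 5016 ± 2742 against 1084 ± 232 CPM (SD, n = 6). Clca1, a metalloprotease of the mucus layer, stood at 1336 ± 571 against 310 ± 132 CPM, and Zg16, a lectin that binds Gram-positive bacteria, at 2490 ± 2138 against 515 ± 229 CPM. Among the factors, Atoh1 stood at 52.5 ± 34.2 against 9.38 ± 3.09 CPM, Foxa3 at 130.5 ± 47.0 against 29.4 ± 9.38 CPM and Creb3l4 at 264 ± 120 against 43.5 ± 2.42 CPM. Ern2, the stress sensor of the endoplasmic reticulum that is particular to mucous epithelia, stood at 49.2 ± 14.3 against 6.48 ± 2.16 CPM. These are descriptions with no test, since the rule set up the 2 sets of nuclei.

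**Figure D1:**
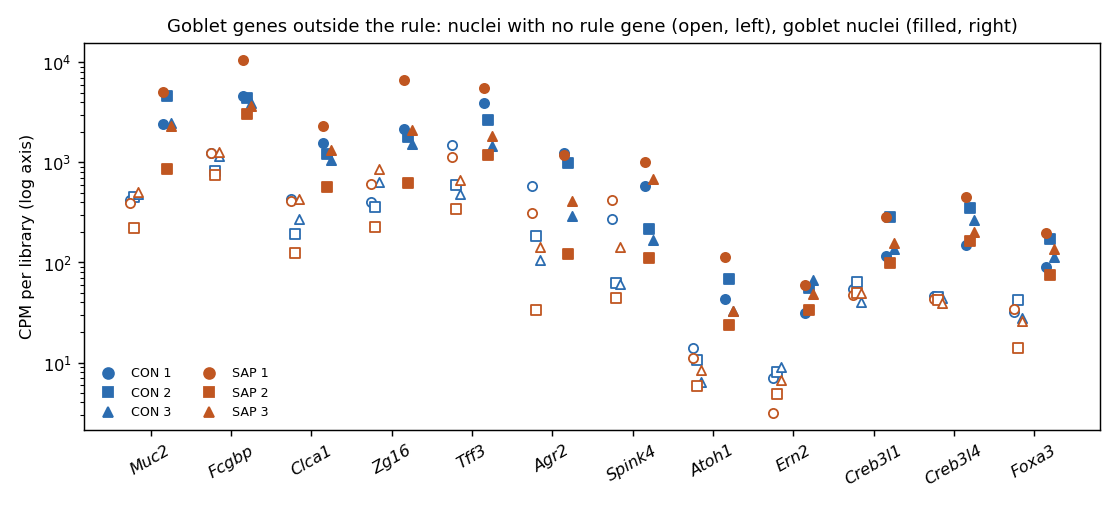
Level of 12 goblet genes outside the rule in each library, in CPM on a log axis, in nuclei with no rule gene (open symbols, left of each gene) and in goblet nuclei (filled symbols, right), with CON in blue, SAP in orange and 1 symbol per library. Filled symbols of a library lie above its open symbols for each of the 12 genes, and SAP replicate 2 (orange squares) is lowest for Muc2, at 863 CPM in goblet nuclei.

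The promoter of Muc2 is shown because Muc2 is the main mucin of goblet cells and served to check the label, from 250 bases before to 50 bases after the start of the gene (RefSeq, build GRCr8, chr1:206228785-206229084, plus strand). Capitals mark GTTTAC, the core that forkhead factors such as Foxa3 bind, and CAGCTG, an E-box of the kind bound by Atoh1 with its partners. Both were searched on both strands, GTTTAC also as GTAAAC, and they do not overlap here.

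Muc2: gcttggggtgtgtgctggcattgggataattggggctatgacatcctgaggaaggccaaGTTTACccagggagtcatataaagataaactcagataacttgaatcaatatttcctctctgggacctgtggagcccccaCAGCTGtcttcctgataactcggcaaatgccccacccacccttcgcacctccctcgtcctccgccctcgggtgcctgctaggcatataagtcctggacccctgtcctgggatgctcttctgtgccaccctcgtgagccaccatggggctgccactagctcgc

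The E-box was in 15.1% of 33469 promoters of this length and in 3 of the 15 goblet genes that had an entry, which were Muc2, Ern2 and Creb3l1. The forkhead core was in 8.11% of all promoters and in 2 of the 15, Muc2 and Clca1. These are matches of letters and show no binding.

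Averaged over libraries, Muc2, Fcgbp and Atoh1 went up with the number of rule genes a nucleus held, from 0 to 5. Zg16, Agr2 and Spink4 were lower with 4 than with 3 rule genes. Among the 408 nuclei with 6 rule genes, Muc2 and Fcgbp were lower than with 5 in 4 of the 5 libraries with a value. Muc2 stood at 998 ± 379 CPM (SD, n = 6) in nuclei with exactly 2 rule genes, just outside the rule, and at 2143 ± 1332 CPM in those with exactly 3, just inside it. With 4 and 5 rule genes it stood at 3059 ± 1606 and 3898 ± 2182 CPM. Fcgbp stood at 2116 ± 796 CPM with 2 and at 4119 ± 2998 CPM with 3 rule genes, and Atoh1 at 30.9 ± 18.7 and 42.9 ± 23.7 CPM. In CON replicate 2 Muc2 went from 453 CPM with no rule gene to 6729 CPM with 5, and in SAP replicate 2 from 220 to 1098 CPM. Goblet nuclei that met the rule after thinning held 4903 ± 1476 CPM of Muc2 (SD, n = 6).

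**Figure D2:**
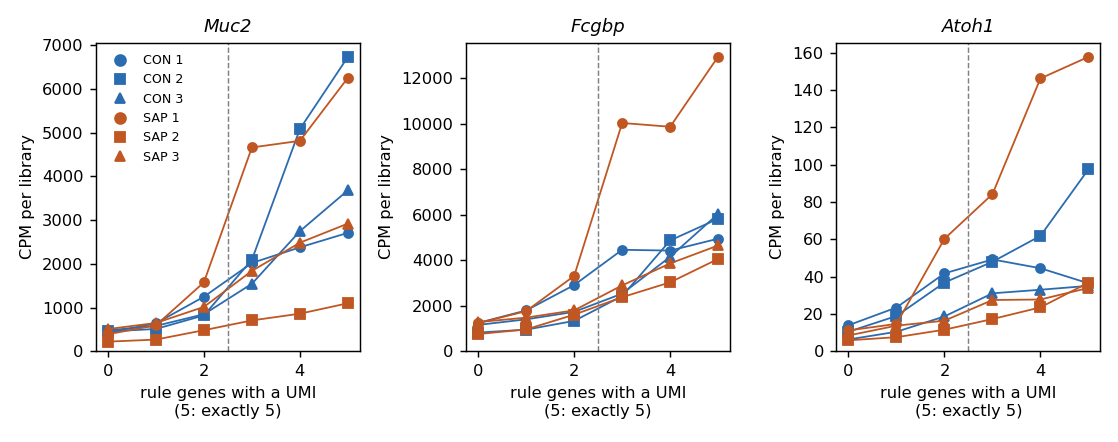
Level of Muc2, Fcgbp and Atoh1 in CPM against the number of rule genes with a UMI in a nucleus, from 0 to 5, with 1 line per library (CON blue, SAP orange); the dashed line marks the limit of the rule. Muc2 is lowest in SAP replicate 2 at every number, with 1098 CPM at 5 rule genes against 6729 CPM in CON replicate 2.

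Part of the goblet nuclei also held genes of other cell types. At least 3 of the 8 markers of a tuft, enteroendocrine, immune, stromal or nerve class were found in 1184 goblet nuclei (22.6%), from 7.47% in CON replicate 2 to 31.2% in CON replicate 1. At least 3 of 8 enterocyte markers were found in 2113 (40.4%), namely in 29.5%, 10.0% and 51.7% of those of the CON rats and in 28.6%, 86.9% and 45.1% of those of the SAP rats. Summed over the 8 enterocyte markers, of which Enpep was the highest and none was at 0, goblet nuclei held 972, 755 and 2667 CPM in CON and 1721, 4364 and 1736 CPM in SAP. SAP replicate 2 was thus the highest and CON replicate 2 the lowest of the 6. The median log2 fold change of the 8 markers, SAP against CON, was 0.90, and it was 0.34 without SAP replicate 2 and 1.48 without CON replicate 3. Summed over 8 Paneth cell genes, led by the defensin Defa24, the goblet nuclei held 71588, 14312 and 12579 CPM in CON and 31281, 11925 and 7239 CPM in SAP. Neutrophil markers, led by S100a9, summed to between 3.18 and 7.43 CPM in CON and to 141, 7.79 and 151 CPM in SAP, and smooth muscle markers, led by Myh11, to 326, 218 and 376 and to 146, 65.5 and 239 CPM. None of these markers was at 0 over the 6 libraries, and their part in the results below was not tested except where goblet nuclei that carried them were left out. In the other direction, 13.9% to 44.1% of the nuclei with at least 3 T cell markers met the goblet rule, and 3.85% to 12.3% did so at 1200 UMIs. At that depth a UMI of Muc2 was found in 81.6% ± 9.59 of goblet nuclei and in 44.4% ± 7.30 of T and B cell nuclei (SD, n = 6). Before thinning these shares were 93.7% and 68.9%, with median depths of 1631 to 2963 and 1894 to 6311 UMIs. No doublet caller was run, and 871 goblet nuclei (16.7%) held more than 3 times the median UMIs of their library. Goblet nuclei without markers of another class held 3794 ± 1534 CPM of Muc2 (SD, n = 6).

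Fewer of the nuclei of SAP rats were goblet nuclei. Goblet nuclei made up 12.5% (exact binomial 95% interval 11.8 to 13.1), 16.9% (16.0 to 17.8) and 15.4% (14.6 to 16.2) in CON, and 6.46% (5.63 to 7.37), 10.2% (9.46 to 11.02) and 11.5% (10.8 to 12.3) in SAP. Every SAP library lay below every CON library. The means were 14.9% ± 2.25 and 9.40% ± 2.63 (SD, n = 3 each), a difference of −5.50 percentage points (exact two-sided permutation test, p = 0.1, the smallest that 3 rats against 3 allow). Intervals cover counting error only. Depth moved this comparison. At 1200 UMIs per nucleus they made up 5.65%, 12.4% and 9.25% in CON and 4.99%, 4.26% and 5.99% in SAP, and CON replicate 1 lay below SAP replicate 3 (9.10% ± 3.39 against 5.08% ± 0.872, SD, n = 3 each; exact permutation test, p = 0.2). Without the goblet nuclei that held enterocyte markers the rest made up 8.78%, 15.2% and 7.43% in CON and 4.61%, 1.34% and 6.33% in SAP, again without overlap. With at least 4 rule genes the means were 9.28% ± 1.69 and 5.25% ± 1.80, and with any 1 rule gene left out SAP also stayed below CON without overlap. With immune, stromal and nerve nuclei left out of both counts the groups overlapped, since CON replicate 1 stood at 10.2% and SAP replicate 3 at 11.8% (exact permutation test, p = 0.2). With at most 1% mitochondrial UMIs they overlapped as well, at 15.6% ± 1.24 and 11.9% ± 2.47 (exact permutation test, p = 0.2). The share counts nuclei that passed the limits, and how much each cell type lost nuclei to them was not tested.

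**Figure D3:**
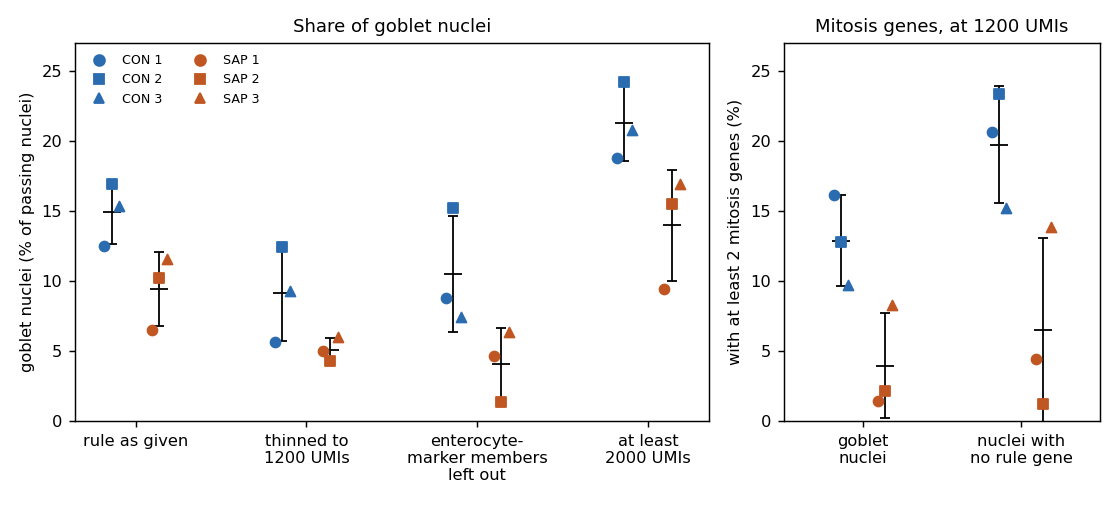
Left, goblet nuclei as a percentage of passing nuclei in each library under the rule as given and 3 other settings; right, percentage of goblet nuclei and of nuclei with no rule gene that held at least 2 mitosis genes at 1200 UMIs. Symbols are libraries (CON blue, SAP orange), and black bars are the mean and SD of 3 libraries; with the rule as given the CON libraries lie between 12.5% and 16.9% and the SAP libraries between 6.46% and 11.5%.

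Goblet nuclei with genes of cell division were also a smaller part of the goblet nuclei in SAP. At 1200 UMIs, at least 2 of the 8 mitosis genes Top2a, Mki67, Cenpe, Cenpf, Aspm, Knl1, Kif11 and Kif20b were found in 16.1%, 12.8% and 9.67% of goblet nuclei in CON and in 1.46%, 2.13% and 8.24% in SAP. No SAP library reached a CON library, and SAP replicate 3 lay nearest (12.9% ± 3.24 against 3.94% ± 3.74, SD, n = 3 each; exact permutation test, p = 0.1). Before thinning the groups overlapped, at 31.0% ± 14.4 and 14.2% ± 10.0 (exact permutation test, p = 0.3). Nuclei with no rule gene went the same way, with 20.6%, 23.4% and 15.2% in CON and 4.41%, 1.18% and 13.9% in SAP. Counted before thinning, goblet nuclei with at least 2 mitosis genes held 1903 ± 1287 CPM of Muc2, and those with fewer held 3862 ± 1679 CPM (SD, n = 6). In SAP replicate 1 the former were 11 nuclei. Before thinning a deeper nucleus shows 2 such genes more easily, and the part of depth in this difference was not tested. At least 2 of the crypt base genes Mmp7, Habp2, Gfra4 and Lgr5 were found at 1200 UMIs in 5.64%, 5.58% and 3.71% of goblet nuclei in CON and in 1.94%, 1.48% and 1.10% in SAP. For this share too the libraries of the groups did not overlap. The SAP values rested on few nuclei, with 4, 9 and 10 in replicates 1 to 3. Among nuclei with no rule gene the groups overlapped for the crypt base genes at this depth. There, SAP replicate 1 reached 3.79%, above CON replicate 2 (1.39%) and CON replicate 3 (1.64%) but below CON replicate 1 (4.40%). SAP replicates 2 and 3 were lower than all CON rats, with 0.483% and 0.972%.

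For expression, UMIs were summed over the goblet nuclei of each rat, and edgeR's quasi-likelihood test was run on the 14420 genes that passed its count filter, with p-values adjusted by the Benjamini-Hochberg method. Levels below are CPM after TMM normalization where a log2 fold change of SAP against CON stands beside them. A gene counted as called where the adjusted p was below 0.05 and the log2 fold change lay 0.5 or more from 0 in either direction. This held for 1 gene, 0.00693% of those tested, which was lower in SAP. At an unadjusted p under 0.05 there were 933 genes (6.47%), 414 higher (2.87%) and 519 lower (3.6%) in SAP. The groups did not overlap for 11.3% of genes, 4.31% higher and 6.99% lower, and the log2 fold change was above 0 for 49.6% and below 0 for 50.4%. DESeq2 on the same sums called 32 genes (0.222%), 15 higher (0.104%) and 17 lower (0.118%), and edgeR gave each of the 32 the same sign with an unadjusted p of at most 0.00859.

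The called gene was St8sia6, a sialyltransferase that adds alpha-2,8-linked sialic acid. It stood at 183, 251 and 235 CPM in the goblet nuclei of CON and at 20.7, 3.68 and 6.85 CPM in those of SAP. Every CON rat lay far above every SAP rat, with a log2 fold change of −4.94 (standard error 0.49, edgeR adjusted p = 0.0459). The log2 fold change lay between −5.39 and −4.49 with 1 library left out. With 1 library out, edgeR's adjusted p was 0.131 without CON replicate 2, 0.0595 without SAP replicate 2 and 0.231 without SAP replicate 3, so that the call was lost. It was lost as well without goblet nuclei of another class (edgeR adjusted p = 0.113) and at a mitochondrial limit of 1% (edgeR adjusted p = 0.284), where the log2 fold change was −5.57 and −5.03. The same held with RLE size factors (−4.93, edgeR adjusted p = 0.0508) and with only the 4 libraries that list no barcodes under 1000 UMIs (−5.29, edgeR adjusted p = 0.0798). The difference was of like size in nuclei with no rule gene (log2 fold change −5.43), in tuft nuclei (−5.85) and in enterocyte nuclei (−6.04). The difference between goblet nuclei and each of these did not pass the test (edgeR unadjusted p = 0.32, 0.432 and 0.0615). Its promoter is given as the sequence of the called gene (RefSeq, build GRCr8, chr17:81792683-81792982, minus strand), with the E-box CAGCTG, present at 2 places, in capitals.

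St8sia6: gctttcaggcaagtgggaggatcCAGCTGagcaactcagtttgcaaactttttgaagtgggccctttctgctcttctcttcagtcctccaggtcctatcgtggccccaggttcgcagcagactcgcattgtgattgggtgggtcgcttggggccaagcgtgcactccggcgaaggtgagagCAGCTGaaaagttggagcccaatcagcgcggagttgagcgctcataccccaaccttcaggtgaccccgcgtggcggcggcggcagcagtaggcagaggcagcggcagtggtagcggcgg

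An unadjusted p under 0.01, groups apart and a mean of at least 20 CPM held for 55 genes higher and 86 lower in SAP. The called gene was among the 86. The called gene included, the 10 with the largest fold were taken in each direction. The 10 higher included 5 with only a number for a symbol, and the 9 added as lower included 1. None of the differences that follow passed the adjusted test of edgeR, while DESeq2 called Best2, Scnn1b, Sema5a, Celsr1, Scd2, Gzmb and Slc30a2, with adjusted p from 0.0012 for Sema5a to 0.0373 for Scd2 and Gzmb. Itln1, the bacteria-binding lectin intelectin that goblet and Paneth cells secrete, stood at 129, 86.2 and 248 CPM in CON and at 5094, 1187 and 415 CPM in SAP (log2 fold change 3.84, standard error 0.87, edgeR adjusted p = 0.714). All SAP rats lay above all CON rats, with SAP replicate 3 nearest to them. The log2 fold change was 2.37 without SAP replicate 1, and the groups overlapped among goblet nuclei that met the rule at 1200 UMIs. For Itln1 it was 4.87 in nuclei with no rule gene, 4.20 in tuft nuclei and 4.85 in enterocyte nuclei. The difference between goblet nuclei and each of these did not pass the test (edgeR unadjusted p = 0.311, 0.696 and 0.246). Best2, a bestrophin channel that passes bicarbonate and is typical of goblet cells of the large intestine, stood at 6.40, 0.876 and 10.5 CPM in CON and at 72.3, 30.7 and 28.5 CPM in SAP (2.69, standard error 0.66). Scnn1b, a subunit of the epithelial sodium channel, stood at 3.84, 4.38 and 17.9 CPM in CON and at 72.3, 32.4 and 51.8 CPM in SAP (2.49, standard error 0.61). Both were low in each CON rat. In nuclei with no rule gene the log2 fold change was 1.95 for Best2 and 1.86 for Scnn1b, and in enterocyte nuclei it was 1.61 and 1.66. Spns2, a transporter of sphingosine-1-phosphate, stood at 10.4, 13.1 and 44.5 CPM in CON and at 46.5, 190 and 62.5 CPM in SAP (2.17, standard error 0.66). Its groups were barely apart, and the log2 fold change lay between 1.27 and 3.15 with 1 library left out. For Spns2 it was 2.80 in nuclei with no rule gene. The MHC class I gene RT1-CE5 had a log2 fold change of 1.82 (standard error 0.51), with a range of 1.19 to 2.32 over the libraries left out. In nuclei with no rule gene it was 2.45. MHC class I genes are near-identical copies whose reads can be split between them, so values of single copies are uncertain.

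Among the genes lower in SAP, Sema5a, a semaphorin guidance molecule, stood at 171, 186 and 138 CPM in CON and at 31.0, 33.7 and 64.4 CPM in SAP (log2 fold change −1.88, standard error 0.31, edgeR adjusted p = 0.714). Celsr1, a cadherin of planar cell polarity, stood at 72.3, 58.2 and 40.4 CPM in CON and at 7.75, 15.0 and 20.1 CPM in SAP (−1.84, standard error 0.35). For both genes each CON rat lay above each SAP rat. In nuclei with no rule gene the log2 fold changes were −2.13 for Sema5a and −1.95 for Celsr1. Scd2, a fatty acid desaturase, stood at 130, 96.7 and 72.0 CPM in CON and at 5.16, 6.35 and 39.6 CPM in SAP (−2.31, standard error 0.62), and its log2 fold change was −4.02 without SAP replicate 3. It was −2.84 in nuclei with no rule gene. Gzmb, the protease granzyme B of cytotoxic lymphocytes, and Slc30a2, a zinc transporter of secretory granules, owed much of their difference to CON replicate 1. Gzmb stood at 133, 23.6 and 19.4 CPM in CON and at 7.75, 11.7 and 7.06 CPM in SAP, and Slc30a2 at 101, 32.4 and 17.5 and at 12.9, 8.69 and 6.21 CPM. Their log2 fold changes were −2.71 and −2.63, and −1.25 and −1.58 without CON replicate 1. In nuclei with no rule gene they were −2.13 for Gzmb and −1.25 for Slc30a2. Ankle1 (−1.83), Cenpf, a kinetochore protein (−1.79), and Pkhd1, the fibrocystin of cilia (−1.72), completed the group.

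**Figure D4:**
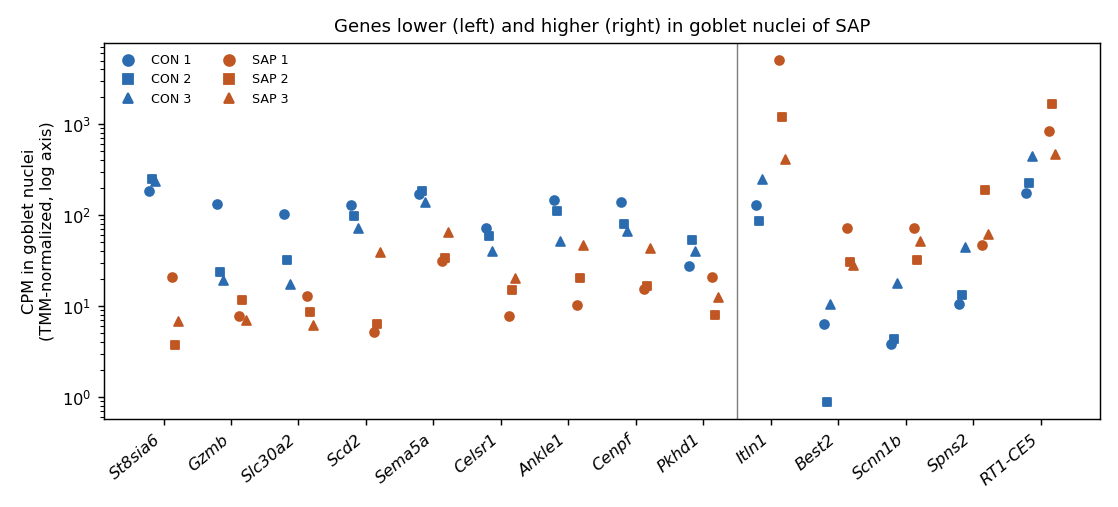
Level of the named genes in goblet nuclei of each library (CPM after TMM normalization, log axis), lower in SAP on the left and higher on the right, with CON in blue, SAP in orange and 1 symbol per library. St8sia6 is the gene past the adjusted threshold, with CON at 183 to 251 CPM and SAP at 3.68 to 20.7 CPM; SAP replicate 1 is highest for Itln1, at 5094 CPM.

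The proteins of mucus themselves did not differ in 1 direction. Of 19 tested genes of the mucus layer, 0 were called by edgeR and 1, Fcgbpl1, by DESeq2, 11 were higher and 8 lower in SAP, and the median log2 fold change was 0.07, beside −0.00 over all 14420 genes. The list held Itln1 among its members. Muc2 stood at 3217 ± 1138 CPM in CON and at 2793 ± 2361 CPM in SAP (SD, n = 3 each; log2 fold change −0.21, standard error 0.60, edgeR unadjusted p = 0.739). The wide spread in SAP came from 5435 CPM in replicate 1 and 889 CPM in replicate 2. Fcgbp had a log2 fold change of 0.39 (standard error 0.55), Zg16 one of 0.75 (standard error 0.73) and Agr2, the disulfide isomerase that folds mucins, one of −0.65 (standard error 0.81), each with overlapping groups. Leaving out SAP replicate 1 moved Muc2 to a log2 fold change of −1.16, Fcgbp to −0.53, Zg16 to −0.65, Agr2 to −1.94 and the median of the list to −0.64, with 7 of 20 genes higher. Agr2 stood at −0.05 without CON replicate 1. Of the 12 goblet genes used to check the label, 8 were higher and 4 lower, and none had an unadjusted p under 0.05. This split was not stable. Without SAP replicate 1, the library with the fewest counts, all 12 were lower, 3 at an unadjusted p under 0.05 (502 of all 15822 genes in that fit), with a median of −0.61. It turned to 4 higher and 8 lower without CON replicate 3 and to 3 and 9 at a mitochondrial limit of 1% or a minimum of 2000 UMIs, and it was 11 and 1 without goblet nuclei that held enterocyte markers. Fcgbpl1, a second gene of the Fcgbp kind, stood at 28.3, 23.2 and 23.1 CPM in CON and at 5.16, 6.01 and 2.57 CPM in SAP (−2.53, standard error 0.43, edgeR adjusted p = 0.714, DESeq2 adjusted p = 0.00276). It lay apart in all rats, and its log2 fold change was −2.16 in nuclei with no rule gene. Of the 19 genes, 1 higher and 3 lower lay apart, beside 4.31% and 6.99% of all genes. Muc13, a mucin of the cell membrane, stood at 2094 ± 515 and 3892 ± 1580 CPM (0.89, standard error 0.40), with overlap between the groups. Its log2 fold change lay between 0.53 and 1.15 with 1 library left out. It was 1.57 in nuclei with no rule gene, and the difference between the 2 sets of nuclei did not pass (edgeR unadjusted p = 0.0505).

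Transcription factors of the goblet and intestinal programme were split evenly. Of 22 tested, 11 were higher and 11 lower, 0 were called, and the median log2 fold change was 0.00. Without SAP replicate 1 the median was −0.26, with 15 lower. Of these, 3 had an unadjusted p under 0.05 (502 of all 15822 genes in that fit were lower at that p). At a mitochondrial limit of 1% the median was −0.20, with 17 lower. Hnf4a, a factor of intestinal identity, stood at 559 ± 69.7 CPM in CON and 560 ± 64.9 CPM in SAP, and Tcf7l2, the Wnt effector, at 1072 ± 254 and 895 ± 41.1 CPM (SD, n = 3 each). Grhl2, a factor of epithelial junctions, was the 1 of 22 without overlap, beside 11.3% of all genes, at 133, 158 and 106 CPM in CON and at 85.2, 67.5 and 88.4 CPM in SAP (−0.72, standard error 0.23, edgeR adjusted p = 0.734). For folding and export in the endoplasmic reticulum, 27 of 47 genes were higher and 20 lower, 0 were called, and the median was 0.02. Without SAP replicate 1 the median was −0.20, with 10 of 47 higher. It was 0.13 without SAP replicate 2, with 34 of 47 higher, and 0.11 without CON replicate 1, with 32 of 47 higher. Herpud1, which serves the degradation of misfolded proteins and is a target of the unfolded protein response, stood at 156, 171 and 135 CPM in CON and at 315, 280 and 223 CPM in SAP (0.82, standard error 0.23, edgeR adjusted p = 0.734). Atf4, the factor of the integrated stress response, stood at 94.7 ± 14.7 and 132 ± 12.5 CPM, also without overlap. Of the 47 genes, 3 higher and 1 lower had no overlap, beside 4.31% and 6.99% of all genes. The chaperone Hsp90b1 stood at 407 ± 190 and 448 ± 244 CPM, with overlap.

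Genes of mucin glycosylation and sialylation split in direction. Of 27 genes of O-glycosylation 17 were higher and 10 lower, with 0 called and a median of 0.09, which was −0.12 without SAP replicate 1. Gcnt4, a core 2 branching enzyme, had the smallest p among them (log2 fold change 1.07, standard error 0.41, unadjusted p = 0.0283, edgeR adjusted p = 0.734), with overlapping groups. Of 38 genes of sialic acid and fucose 18 were higher and 20 lower, with a median of −0.02, and St8sia6 was the 1 called. The median was −0.21 without CON replicate 3, −0.18 without SAP replicate 1 and 0.09 without SAP replicate 2. St6gal1, which adds alpha-2,6-linked sialic acid to N-glycans, stood at 53.9, 32.4 and 90.3 CPM in CON and at 170, 111 and 123 CPM in SAP (1.16, standard error 0.36, edgeR adjusted p = 0.734). Its difference was larger in nuclei with no rule gene (1.89), and the difference between the 2 sets of nuclei was −0.81 (edgeR unadjusted p = 0.00337, adjusted p = 0.992). Gne, the first enzyme of sialic acid synthesis, stood at 279 ± 51.9 and 238 ± 81.4 CPM in goblet nuclei. Its log2 fold change was −0.25 there and −0.97 in nuclei with no rule gene, and this difference did not pass either (edgeR unadjusted p = 0.0026, adjusted p = 0.985). Gmds, the first enzyme of GDP-fucose synthesis, stood at 5178 ± 2254 and 4373 ± 1931 CPM (SD, n = 3 each), with overlap.

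In granule exocytosis 18 of 39 genes were higher and 21 lower, with 0 called and a median of −0.05, which was −0.25 without SAP replicate 1 and 0.05 without SAP replicate 2. Atp2c2, the calcium and manganese pump of the secretory pathway, stood at 125, 146 and 82.9 CPM in CON and at 56.8, 21.7 and 50.1 CPM in SAP (−1.52, standard error 0.38, edgeR adjusted p = 0.727). Anxa2, a calcium-dependent membrane-binding annexin, stood at 183, 122 and 162 and at 238, 243 and 250 CPM (0.65, standard error 0.22). Neither gene overlapped between the groups. Of the 39 genes, 1 higher and 3 lower lay apart, beside 4.31% and 6.99% of all genes. Chrm3, the muscarinic receptor through which acetylcholine triggers mucus release, stood at 931 ± 199 and 973 ± 314 CPM (SD, n = 3 each). In ion transport 20 of 34 genes were higher and 14 lower, with 0 called by edgeR, 2 by DESeq2 and a median of 0.16. The median was 0.00 without SAP replicate 1, with 17 higher and 17 lower, 0.07 without SAP replicate 2 and 0.33 without CON replicate 3. Slc4a4, the basolateral sodium bicarbonate cotransporter, stood at 776, 746 and 708 CPM in CON and at 302, 476 and 449 CPM in SAP (−0.86, standard error 0.25, edgeR adjusted p = 0.734). Car8, a relative of the carbonic anhydrases without their activity, stood at 119, 96.7 and 66.4 and at 43.9, 23.7 and 31.9 CPM (−1.58, standard error 0.32, edgeR adjusted p = 0.714, DESeq2 adjusted p = 0.0209). For both genes the groups did not overlap, as for 4 higher and 3 lower of the 34 in all, beside 4.31% and 6.99% of all genes.

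Most genes of antigen presentation had higher values in the goblet nuclei of SAP, with 0 called by edgeR and 1, the class I gene RT1-CE16, by DESeq2. RT1-CE16 stood at 75.2, 48.6 and 54.2 CPM in CON and at 248, 567 and 56.7 CPM in SAP (log2 fold change 2.29, standard error 0.66, DESeq2 adjusted p = 0.0396), so that SAP replicate 3 fell among the CON rats. Its log2 fold change lay between 1.23 and 2.79 with 1 library left out. All 12 tested genes of MHC class II had a log2 fold change above 0, with 0 called, 4 at an unadjusted p under 0.05 (2.87% of all genes were higher at that p), 6 without overlap (4.31% of all genes) and a median of 0.87. Cd74, the invariant chain, stood at 611, 189 and 626 CPM in CON and at 826, 1261 and 667 CPM in SAP (0.95, standard error 0.45, edgeR adjusted p = 0.793). Its log2 fold change lay between 0.56 and 1.20 with 1 library left out. The class II chain RT1-Db1 stood at 86.5, 19.7 and 162 and at 238, 438 and 171 CPM (1.65, standard error 0.64). SAP replicate 2, whose goblet nuclei carried the most enterocyte genes, was the highest for both. B cell markers, another source of these genes, summed to 11.1, 30.0 and 152 CPM in CON and to 38.2, 18.8 and 304 CPM in SAP. Macrophage markers summed to 119, 89.0 and 98.9 CPM in CON and to 31.1, 44.8 and 114 CPM in SAP. The part of either class in these values was not tested. Without the goblet nuclei that held enterocyte markers the median of the list was 0.98, with 10 of 11 genes higher. Without SAP replicate 2 it was 0.62 and without CON replicate 2 it was 0.56, each with 12 of 13 higher and 1 at an unadjusted p under 0.05. Of all genes, 235 of 15714 were higher at that p without SAP replicate 2 and 219 of 15786 without CON replicate 2. In nuclei with no rule gene the median was 1.22. In MHC class I and its loading machinery 20 of 25 genes were higher, with 0 called, 6 higher at an unadjusted p under 0.05 (2.87% of all genes) and a median of 0.30. This median was 0.58 without CON replicate 1, 0.19 without SAP replicate 1 and 0.14, with 15 of 25 higher, at a mitochondrial limit of 1%. Without SAP replicate 2, 16 of 25 were higher, 2 at an unadjusted p under 0.05 (235 of all 15714). The number higher at that p was 4 without CON replicate 2 (219 of all 15786) and 10 without SAP replicate 3 (591 of all 14346). B2m, the shared light chain, stood at 667 ± 383 and 749 ± 231 CPM (SD, n = 3 each), with overlap.

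Interferon-response genes had no stable direction in goblet nuclei. Of 36 tested, 12 were higher and 24 lower, with 0 called and a median of −0.10, against a median of 0.30 in nuclei with no rule gene, a gap that was not tested. The direction turned without CON replicate 2 (20 higher, median 0.05), and without goblet nuclei of another class 18 of 32 were higher (median 0.02). Isg15, a ubiquitin-like protein induced by interferon, stood at 2.08, 3.50 and 6.41 CPM in CON and at 12.9, 10.0 and 24.2 CPM in SAP (log2 fold change 2.01, standard error 0.55, edgeR adjusted p = 0.734). The groups did not overlap, and the values of this gene are low. Of the 36 genes, 3 higher and 2 lower had no overlap, beside 4.31% and 6.99% of all genes. In cytokine sensing 37 of 52 genes were higher and 15 lower, with 0 called, 8 higher without overlap (4.31% of all genes) and a median of 0.24. Without SAP replicate 2 the split was 28 to 24 and the median 0.06. Jak1, a kinase of many cytokine receptors, stood at 211, 200 and 214 CPM in CON and at 289, 240 and 271 CPM in SAP (0.35, standard error 0.20). Osmr, the receptor of oncostatin M, stood at 3.44 ± 1.07 and 9.98 ± 3.47 CPM, and Ifnlr1, the receptor of lambda interferons, at 31.2 ± 1.99 and 52.1 ± 14.6 CPM (0.73, standard error 0.28). Il13ra1, a receptor chain for the goblet cell cytokine IL-13, stood at 154 ± 31.4 and 182 ± 30.7 CPM, with overlap.

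Most genes of the cell cycle had lower values in the goblet nuclei of SAP, with 0 called by edgeR. All 65 tested genes of the G2 and M phases had a log2 fold change below 0, with 0 called, 32 at an unadjusted p under 0.05 (3.6% of all genes were lower at that p), 21 without overlap (6.99% of all genes) and a median of −1.05. Cenpf stood at 138, 80.6 and 66.4 CPM in CON and at 15.5, 16.7 and 43.9 CPM in SAP (−1.79, standard error 0.44, edgeR adjusted p = 0.714). Top2a, the topoisomerase of dividing cells, stood at 176, 120 and 87.2 and at 31.0, 30.1 and 101 CPM (−1.16, standard error 0.47), with overlap through SAP replicate 3. Its log2 fold change lay between −2.07 and −0.85 with 1 library left out. The median of the list was −1.94 without SAP replicate 3, with 60 genes lower at an unadjusted p under 0.05 (772 of all 14346). It was −0.68 without SAP replicate 2, with 11 (333 of all 15714). At that p there were 12 lower without CON replicate 1 (279 of all 14852). There were 16 without CON replicate 2 (335 of all 15786) and 16 without SAP replicate 1 (502 of all 15822). With only the 4 libraries that list no barcodes under 1000 UMIs there were 2 (245 of all 15900). Without goblet nuclei that held enterocyte markers the median was −0.68, with 63 of 65 genes lower. There, 4 were lower at that p (353 of all 11474). Of 58 genes of S phase 51 were lower and 7 higher, with 0 called, 15 at an unadjusted p under 0.05 (3.6% of all genes), each of these lower, and a median of −0.58. It was −0.30 without SAP replicate 2, with 5 genes lower at that p (333 of all 15714), and −1.06 without SAP replicate 3, with 29 (772 of all 14346). Prim1, a primase subunit, stood at 113, 114 and 74.9 CPM in CON and at 49.1, 47.8 and 68.9 CPM in SAP (−0.84, standard error 0.26). In nuclei with no rule gene the medians were −1.37 and −0.76. Of 40 genes of Notch and Wnt signalling 25 were lower and 15 higher, with 0 called by edgeR, 1 by DESeq2 and a median of −0.13, which was −0.22 without CON replicate 2 and −0.21 without SAP replicate 1 or SAP replicate 3. Ephb2, a receptor graded along the crypt as a Wnt target, stood at 386, 293 and 262 CPM in CON and at 121, 90.2 and 166 CPM in SAP (−1.31, standard error 0.29, edgeR adjusted p = 0.714, DESeq2 adjusted p = 0.0428). Znrf3, which removes Wnt receptors, stood at 202, 246 and 167 and at 116, 87.5 and 120 CPM (−0.93, standard error 0.24). Both genes lay apart in all 6 rats. Of the 40 genes, 1 higher and 3 lower did so, beside 4.31% and 6.99% of all genes.

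**Figure D5:**
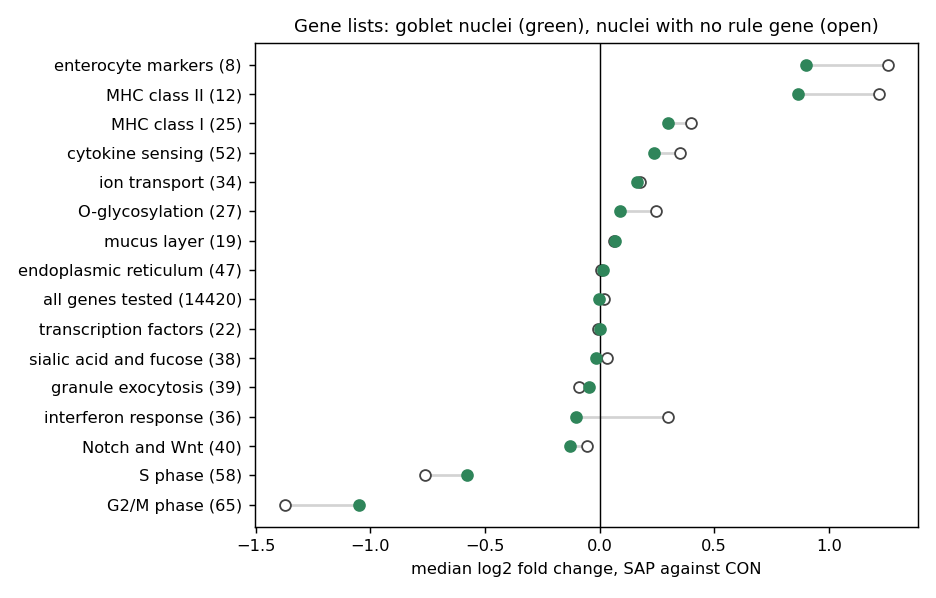
Median log2 fold change of SAP against CON over the tested genes of each list (number of genes in parentheses), in goblet nuclei (green) and in nuclei with no rule gene (open). Among the lists drawn, the medians in goblet nuclei run from −1.05 for the G2 and M phases to 0.90 for the 8 enterocyte markers, and the median of all genes tested was −0.00.

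Whether the difference between SAP and CON was particular to goblet nuclei was tested as an interaction within rats. Against nuclei with no rule gene, 0 of 16518 genes passed the edgeR test of the difference (0%), and 722 (4.37%) had an unadjusted p under 0.05. Against nuclei with at least 3 tuft cell genes, another secretory class, 0 of 11558 passed and 313 (2.71%) had an unadjusted p under 0.05. Against nuclei with at least 3 enterocyte genes these numbers were 0 of 16511 and 484 (2.93%). When the rule was applied to thinned nuclei, an alternative chosen after seeing the data, 15 genes passed against nuclei with no rule gene, 3 of them with a more positive and 12 with a more negative log2 fold change in goblet nuclei. A difference that did not pass does not show that the classes responded alike.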

How the data were processed

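Nuclei of the ileum of 6 rats were profiled with droplet snRNA-seq. The authors made the UMI counts per gene and nucleus with dnbc4tools, and the submitters' processing notes name Seurat 4.3.0 and the build mRatBN7.2; the deposited counts are not normalized. Each library was labelled as 1 rat and groups came from the labels, which give all samples the same batch. The limits on nuclei were those of the study, and no doublet caller was run here. The members and gene lists were chosen with earlier results of these data known. Counts were summed per library over the goblet nuclei and tested with edgeR 4.0.16 (R 4.3.3, filterByExpr, TMM, robust quasi-likelihood fit), with DESeq2 1.42.0 as an alternative. Interactions were fitted with the rat as block. Shares were compared with exact two-sided permutation tests in SciPy 1.17.1, with exact (Clopper-Pearson) 95% intervals. Thinning drew 1200 UMIs per nucleus without replacement.

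Named genes were the 8 rule genes, 12 goblet genes, the called genes, up to 10 genes per direction by fold among those with unadjusted p under 0.01, groups apart and a mean of at least 20 CPM, and from each list the 3 highest in CPM and the 2 with the smallest p. Symbols that are only numbers were counted and not described. On simulated counts with log2 changes of 2 and 3, edgeR called 70 of 96 (72.9%) and 87 of 90 (96.7%) changed genes, with 8 false calls among 14007. The simulation gave each gene the spread of the fitted trend, without spread particular to a gene or a library. Its rates therefore do not measure how many changes were missed here. Replicates of a group differed by far more than sampling noise (chi-square per degree of freedom 14.1 to 101). Promoters came from RefSeq for GRCr8, which is not the build of the counts.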

Additional observations from a re-analysis of the deposited data

How the results depend on the processing

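The lower share of goblet nuclei and of goblet nuclei with mitosis genes in SAP kept its direction under every alternative run. The number of called genes, 1 in the chosen analysis, was 32 with DESeq2 (15 higher, 17 lower), 14 with no filter on low counts (4 higher, 10 lower), and 0 in edgeR with a mitochondrial limit of 1% (809 genes at an unadjusted p under 0.05), without goblet nuclei of another class (1175), with RLE size factors (919) and, chosen after seeing the data, with only the 4 libraries that list no barcodes under 1000 UMIs (430). Leaving out 1 library gave 0 to 5 called genes, with 0 without CON replicate 2, SAP replicate 2 or SAP replicate 3 and 5 without CON replicate 3. With a replicate block, 0 genes were called (998 at an unadjusted p under 0.05; St8sia6 at a log2 fold change of −4.97 and an edgeR adjusted p of 0.0906), and an exact sign-flip test over the 3 pairs gave p = 0.25, the smallest it allows, for both shares (−5.50 and −8.92 percentage points). For each rat the deviation of log CPM from its group mean was also taken, gene by gene. These deviations correlated at 0.258, 0.0873 and 0.268 between same-numbered rats and at −0.348 to 0.195 between others. Since the labels do not pair same-numbered rats, they share only a number. Of the interactions, that against nuclei with no rule gene gave 52 calls with no filter, 15 with thinned nuclei (chosen after seeing the data) and 0 to 1 with 1 library out. That against tuft nuclei gave 1 with no filter, 2 with at least 4 rule genes and 0 to 10 with 1 library out (10 without SAP replicate 1). That against enterocyte nuclei gave 39 with no filter, 1 with thinned nuclei and 0 to 61 with 1 library out (61 without CON replicate 3). Atoh1, at 0.06, reversed without SAP replicate 1 (−0.91), with a range of −0.91 to 0.44 over the libraries left out. In all, 28 of 86 named genes changed sign under at least 1 alternative, none of them with an unadjusted p under 0.206 in the chosen analysis. The cause of these moves was not tested. The sums of SAP replicate 1 rest on the fewest UMIs.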

Other observations

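Among the 26 named symbols that DESeq2 called in goblet nuclei, several lie outside the rule for named genes and were chosen here after their values were seen. Slpi, a secreted protease inhibitor of mucosal surfaces, stood at 0.480, 0.438 and 2.91 CPM (after TMM normalization) in CON and at 54.2, 9.69 and 26.96 CPM in SAP (DESeq2 adjusted p = 4.44e-05, edgeR adjusted p = 0.714). Scnn1g, a further subunit of the epithelial sodium channel beside Scnn1b, stood at 1.28, 0.876 and 9.12 CPM in CON and at 33.6, 24.1 and 39.4 CPM in SAP (DESeq2 adjusted p = 0.0118, edgeR adjusted p = 0.714). Cldn4, a claudin of tight junctions, stood at 53.6, 104 and 107 and at 333, 188 and 211 CPM (DESeq2 adjusted p = 0.0373, edgeR adjusted p = 0.714). For these 3 genes every SAP rat lay above every CON rat. The groups did not overlap for 29 of the 32 calls, beside 11.3% of all genes. In nuclei with no rule gene the log2 fold changes were 5.52 for Slpi, 2.71 for Scnn1g and 2.06 for Cldn4, and in goblet nuclei 4.29, 3.01 and 1.46. Reg4, a secreted lectin of secretory cells, stood at 27.5, 24.1 and 16.1 CPM in CON and at 207, 22.4 and 144 CPM in SAP, so that SAP replicate 2 fell among the CON rats. S100a8, a marker of neutrophils, stood at 62.0, 3.34 and 60.1 CPM in SAP. The summed neutrophil markers were likewise high in SAP replicates 1 and 3 and low in replicate 2, and their part in this value was not tested. Lcn2, the mitochondrial transcript ND4L and Tp53i13 were further higher calls outside the rule, each without overlap (DESeq2 adjusted p = 0.0473, 0.0114 and 0.00585). Of the 32 calls, 17 were lower in SAP. Those lower, outside the rule and with a named symbol were Esrrg, Etfbkmt, Hmcn2, Slco2b1, Pnma8b and UST4r, each without overlap. Their DESeq2 adjusted p ran from 0.0121 for Slco2b1 to 0.0428 for UST4r. Slco2b1 stood at 102, 93.2 and 100 CPM in CON and at 25.8, 32.7 and 45.4 CPM in SAP (edgeR adjusted p = 0.714).

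Counted before thinning, goblet nuclei with at least 2 crypt base genes numbered 492 and held 1107 ± 684 CPM of Muc2 (SD, n = 6), and the 2113 with enterocyte markers held 1875 ± 737 CPM. In SAP replicate 1 the crypt base set was 6 nuclei, and the part of depth in these values was not tested.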
